A study of Arabidopsis thaliana with 9 samples.

Results

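The comparison described here was that of seedlings overexpressing AtSPP with seedlings of the parental strain Col-0, across all genes that 1 probe set of the array could name. AtSPP (AT2G03120) is the signal peptide peptidase of Arabidopsis thaliana. The members were the 3 arrays labelled as AtSPP overexpressed and the 3 arrays labelled as Columbia, 6 of the 9 arrays of the series, and 13513 of 22746 probe sets were paired with 1 gene in the platform annotation. Where a gene had more than 1 probe set, its brightest was kept, which left 13355 genes.

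The AtSPP-overexpressed plants were homozygous transgenic plants in the Col-0 background. They carried the full-length AtSPP between the CaMV 35S promoter, which drives expression in most plant tissues, and the Nos terminator, with no other transgene named. The labels name the binary vectors pZH2B, pZH3B and pZH4B for replicates 1, 2 and 3, while the study's methods name pZH2B alone, so that the rising digit may be a slip of data entry. The Col-0 plants carried no construct. All seedlings grew for 7 days on half-strength MS medium with 0.8% agar, and RNA was taken from 20 whole plants pooled per sample. The remaining 3 arrays, of RNAi knockdown lines made in Col-0 with a fragment of AtSPP, entered the fit for its estimate of the spread and are set beside the overexpressed arrays where this is said. Apart from these vector names, no label ties a replicate number to a line or a separate culture, so a p-value here covers only the spread among the arrays at hand, some of which may be technical.

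Signal peptide peptidase is an aspartic protease within the membrane of the endoplasmic reticulum. It cuts the signal peptides that signal peptidase has released from new secretory and membrane proteins, so that the remnants leave the membrane. A protease of this kind acts on proteins, whereas an ATH1 array measures transcripts. The array comparison therefore asks which transcripts stood at another level in whole seedlings with more AtSPP RNA, and substrates of the protease cannot be read from it. In RNA of whole seedlings, fewer cells of a type and less RNA per cell cannot be told apart.

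The values are signals that the authors normalized with the distribution free weighted method (DFW) and that were read here as log2 values. DFW draws arrays together wherever a probe set varies little, so the differences are very small numbers. The median size of the difference between the AtSPP-overexpressed and Col-0 arrays was 3.01e-06 DFW units, and 61 of 22746 probe sets differed by more than 0.01. Differences are therefore given in DFW units, which do not convert to log2 fold changes, and the rank by size among all probe sets shows how far a gene stood out. The array medians lay between 6.3023 and 6.3029. Centring the arrays on their medians moved the median difference by -1.59e-04, and 13046 of 13355 genes were then lower in the AtSPP-overexpressed arrays, against 6279 as deposited. The direction of a positive difference smaller than that shift depends on the centring, while a negative difference stays negative.

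AtSPP was higher on every AtSPP-overexpressed array than on any other array. Its signal was 8.187, 8.226 and 8.157 in AtSPP-overexpressed seedlings, against 7.961, 7.979 and 7.980 in Col-0. The groups lay 0.177 apart at their closest. The difference was 0.217 (standard error 0.0170, limma adjusted p = 0.0140) and ranked 3 by size among all probe sets. An exact permutation test of the 6 arrays gave a two-sided p = 0.1, the smallest that 3 arrays against 3 allow. The limma adjusted p was 0.106 with the 6 arrays alone, 0.0712 when Col-0 replicate 1 was left out and 0.0810 when Col-0 replicate 2 was. The probe set does not separate the transcript of the transgene from that of the native gene. Among the 4 genes on each side of AtSPP on chromosome 2, 4 in all were measured, and none of these separated the groups. Their differences ran from -3.01e-05 (AT2G03140) to 1.45e-05 (EXPA15). The other 4 neighbours were not analysed here.

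**Figure D1:**
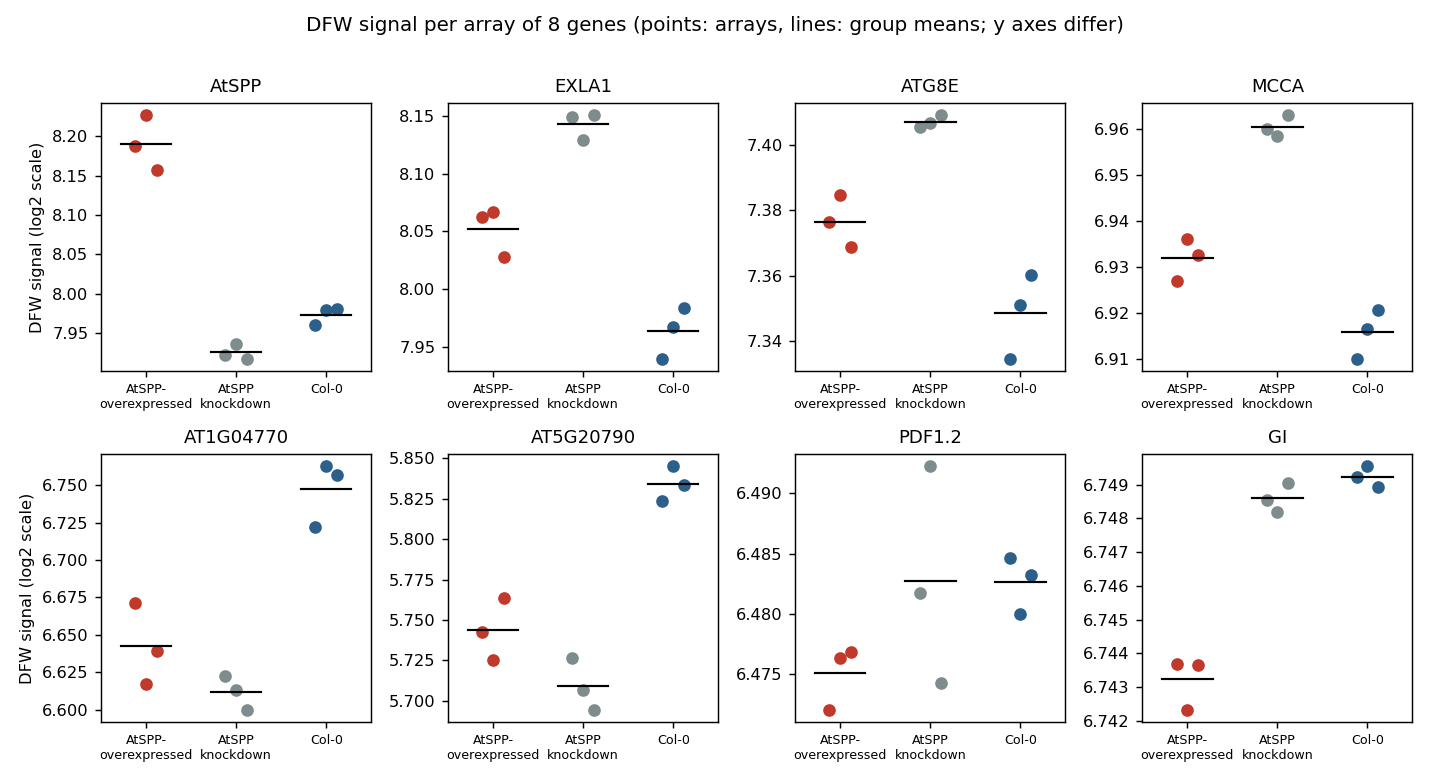
DFW signal on the log2 scale (y axes, each with its own range) of 8 genes on the 3 AtSPP-overexpressed, 3 AtSPP knockdown and 3 Col-0 arrays, with points for arrays and lines for group means. The AtSPP-overexpressed and Col-0 points do not overlap in any of the 8 panels, and in AtSPP the closest points are 0.177 apart, against 0.00316 in PDF1.2.

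Across the array, 124 of 22746 probe sets (0.545%) passed a limma adjusted p of 0.05, of which 68 were higher (0.299%) and 56 lower (0.246%) in the AtSPP-overexpressed arrays. After centring on the array medians the split was 126 higher and 228 lower. Among the genes, 56 of 13355 passed (0.419%), with 31 higher (0.232%) and 25 lower (0.187%). A wider set was that of genes without overlap, for which the 3 AtSPP-overexpressed arrays were all above or all below the 3 Col-0 arrays. This held for 2117 genes (15.9%), of which 1250 were higher (9.36%) and 867 lower (6.49%). Over all probe sets it held for 3865 (17%), 2208 higher (9.71%) and 1657 lower (7.28%), but for 248 higher and 4820 lower after centring on the medians. The genes split into 1317 higher and 1118 lower with quantile normalization, and into 115 higher and 2649 lower with centring. Most of these separations were minute, with a median size of 1.56e-05. Were the 6 arrays interchangeable, a gene would still separate in either direction with a probability of 0.1, given the 20 possible splits. Only 120 of the 2117 genes differed by more than 0.001, 85 of them higher and 35 lower, and 18 by more than 0.01. The calls depended on the arrays in the fit and on the test. Leaving out any 1 of the 9 arrays brought the 56 genes down to between 3, without Col-0 replicate 2, and 23, without AtSPP-overexpressed replicate 1. With the 6 arrays alone limma called 0 probe sets (2537 at an unadjusted p under 0.05), and rank products, the test named in the study's methods, called 661 (2.91%).

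**Figure D2:**
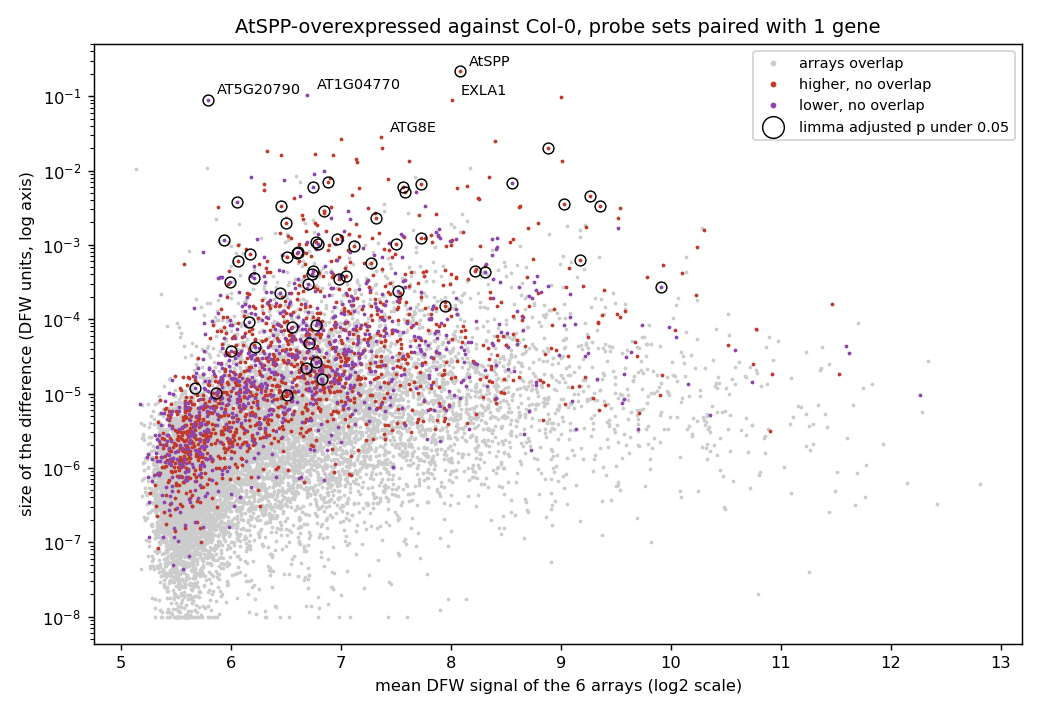
Size of the difference between the AtSPP-overexpressed and Col-0 means (y axis, DFW units, log axis, sizes below the lowest drawn value placed there) against the mean signal of the 6 arrays (x axis, log2 scale) for 13355 genes. Coloured points are genes whose arrays did not overlap, circles are the 56 genes with a limma adjusted p under 0.05, and these circles run from 9.64e-06 to 0.217 in size.

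The genes with the largest separated differences were taken as the 15 highest and the 15 lowest, in order of size. Of the 10 largest probe sets, all 10 without overlap, only 5 were paired with 1 gene. The others, some of them larger in difference than AtSPP, are not named here. They were selected by their differences, so the sizes describe them and are no test. The gene lists used below were chosen with earlier results of these data known, and some hold these selected genes. No count over a list is therefore independent evidence. The 15 higher genes differed by 0.0129 to 0.0989 and ranked between 7 and 49 among all probe sets. The 15 lower genes differed by 0.00221 to 0.104 in size and ranked between 5 and 203. Of the higher genes 1 passed in limma and of the lower genes 4 did. The next gene after the 15 higher was AT3G15630, at 0.00830, and the next after the 15 lower was AT2G25510, at -0.00171. Lower genes with differences as large stayed out where their arrays overlapped, among them WRKY53, a transcription factor gene of leaf senescence and defence, at -0.0108 and AT1G54926 at -0.0104.

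**Figure D3:**
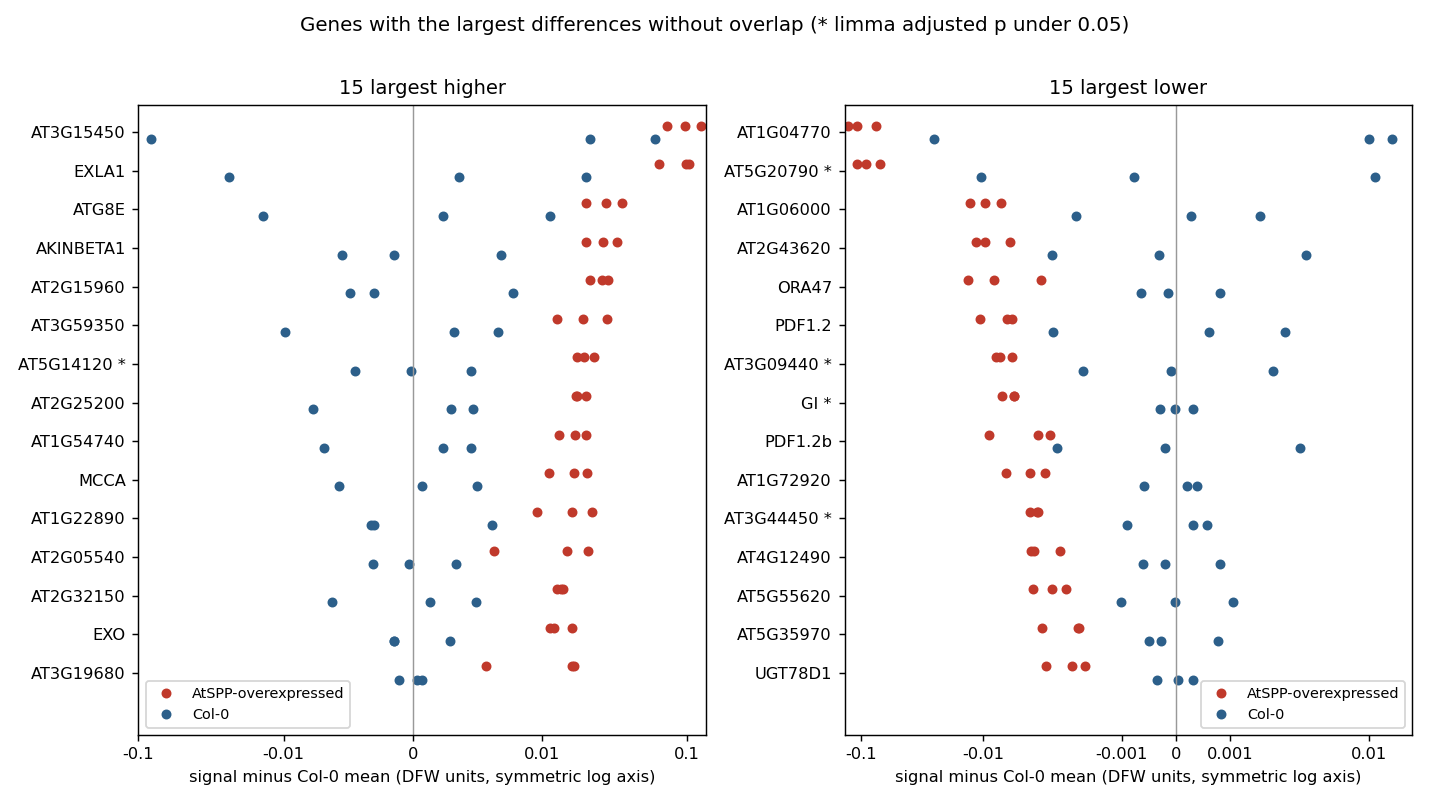
Signal minus the Col-0 mean (x axes, DFW units, symmetric log axes) on each AtSPP-overexpressed and Col-0 array for the 15 largest higher genes (left) and the 15 largest lower genes (right), with a star at genes whose limma adjusted p was under 0.05. In every row the 3 AtSPP-overexpressed points lie beyond the 3 Col-0 points, and the stars mark 1 gene on the left and 4 on the right.

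The first of the higher genes in size was AT3G15450, for which the annotation used here gives no function. Its signal was 9.029, 9.081 and 9.053 in AtSPP-overexpressed seedlings, against 8.874, 8.977 and 9.016 in Col-0. The closest arrays lay 0.0133 apart, less than the SD of 0.0732 among the Col-0 arrays. The difference of 0.0989 (standard error 0.0353) did not pass (limma adjusted p = 0.309) and was 0.0581 without Col-0 replicate 1. AKINBETA1, a regulatory subunit of the SnRK1 kinase that responds to low energy, had signals of 7.010, 7.023 and 7.016 in AtSPP-overexpressed seedlings, against 6.984, 6.988 and 6.996 in Col-0. Its groups were 0.0133 apart, about as far as AT3G15450 but with far less spread, and the difference was 0.0266 (standard error 0.00525, limma adjusted p = 0.0994).

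The genes MCCA, MCCB and IVD act in leucine breakdown in mitochondria. MCCA, the alpha subunit of 3-methylcrotonyl-CoA carboxylase, had signals of 6.927, 6.936 and 6.933 in AtSPP-overexpressed seedlings, against 6.910, 6.917 and 6.921 in Col-0, a difference of 0.0162 (standard error 0.00336, limma adjusted p = 0.114). The beta subunit gene MCCB differed by 2.82e-04 (limma adjusted p = 0.140) and IVD, isovaleryl-CoA dehydrogenase of the preceding step, by 6.00e-04 (limma adjusted p = 0.544). None of these 3 passed, although the arrays of each were separated. In IVD the closest arrays barely differed, at 6.9131 in AtSPP-overexpressed and 6.91309 in Col-0 seedlings. GAT1_2.1, a glutamine amidotransferase-like gene, had signals of 6.4595, 6.4597 and 6.4595 in AtSPP-overexpressed seedlings, against 6.4560, 6.4560 and 6.4566 in Col-0. It rose by 0.00334 (standard error 2.82e-04, limma adjusted p = 0.0180), and passed in 5 of the 9 fits with 1 array left out (adjusted p from 0.0327 to 0.0852). These values are of its brighter probe set, and the other probe set of this gene did not pass.

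The list of low-sugar and branched-chain amino acid breakdown genes holds these 6 genes as its measured members, of 21 listed. All 6 separated the groups and were higher, against 9.36% of all genes, 1 of them passed in limma, and their median difference was 0.00975, against 1.13e-07 over all genes. The list was put together with earlier results of these arrays known, so its count is not independent evidence. After quantile normalization 4 of the 6 were separated and 5 were higher, MCCB being lower by then (-3.01e-04). After centring on the medians 4 were separated and 6 were higher.

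ATG8 proteins are attached to the membrane of the forming autophagosome, and their genes make up all 9 measured members, of 12 listed, of the autophagy list. ATG8E stood out among them. Its signal was 7.376, 7.385 and 7.369 in AtSPP-overexpressed seedlings, against 7.335, 7.351 and 7.360 in Col-0, with a difference of 0.0280 (standard error 0.00682, limma adjusted p = 0.157). The smaller difference of ATG8F passed: it rose by 6.33e-04 (standard error 8.93e-05, limma adjusted p = 0.0480), with signals of 9.17752, 9.17766 and 9.17747 in AtSPP-overexpressed seedlings, against 9.17686, 9.17686 and 9.17703 in Col-0. It passed in 0 of the 9 fits with 1 array left out. Of the 9 genes 4 were separated and higher, against 9.36% of all genes, the others being ATG8D at 1.62e-05 and APG8H at 1.09e-04. The count became 1 higher and 2 lower with quantile normalization, and 2 higher and 1 lower with centring. All 9 differences were positive as deposited, but quantile normalization turned 5 negative and centring on the medians 7, where ATG8E and ATG8F alone stayed positive.

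Among the 15 higher genes were EXLA1 and EXO, neither of which passed. EXLA1, an expansin-like protein of the cell wall, had signals of 8.062, 8.067 and 8.028 in AtSPP-overexpressed seedlings, against 7.940, 7.967 and 7.983 in Col-0. The gap of 0.0445 was the widest among the 15 higher genes, and the difference was 0.0891 (standard error 0.0148, limma adjusted p = 0.0706). EXO, a secreted protein that promotes growth in response to brassinosteroids, had signals of 9.022, 9.017 and 9.018 in AtSPP-overexpressed seedlings, against 9.004, 9.009 and 9.004 in Col-0. Its difference was 0.0132 (standard error 0.00242, limma adjusted p = 0.0834). EXGT-A3, an enzyme that cuts and rejoins xyloglucan, rose by 0.00353 (standard error 3.40e-04, limma adjusted p = 0.0191), with signals of 9.0297, 9.0293 and 9.0294 in AtSPP-overexpressed seedlings, against 9.0258, 9.0255 and 9.0265 in Col-0, and passed in 3 of the 9 fits with 1 array left out. In the list of expansins and xyloglucan endotransglucosylases, 10 of 25 genes were measured. XTH16 (8.74e-04) and XTH33 (2.23e-04) were separated and higher beside EXGT-A3, EXPA8 was separated and lower (-0.00109, limma adjusted p = 0.0778), and the other 6 overlapped, with 5 of the 10 differences positive. The 3 higher and 1 lower stood against 9.36% and 6.49% of all genes, and became 1 higher and 3 lower with centring. EXLA1 and EXO were not on that list.

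The only one of the 15 higher genes past the threshold was AT5G14120. Its signal was 8.890, 8.895 and 8.892 in AtSPP-overexpressed seedlings, against 8.868, 8.872 and 8.877 in Col-0. It rose by 0.0200 (standard error 0.00239, limma adjusted p = 0.0375), but passed in 1 of the 9 fits with 1 array left out, that without Col-0 replicate 3 (adjusted p from 0.0387 to 0.139). The other 8 genes, AT2G15960, AT3G59350, AT2G25200, AT1G54740, AT1G22890, AT2G05540, AT2G32150 and AT3G19680, differed by 0.0129 to 0.0253, with limma adjusted p from 0.0692 to 0.259. The annotation used here names no function for them or for AT5G14120.

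The 15 higher genes shared a pattern over single arrays. Col-0 replicate 1 had the lowest Col-0 signal in 12 of them and Col-0 replicate 3 the highest in 12, while AtSPP-overexpressed replicate 2 had the highest signal of its group in 13. In AtSPP itself the same 2 arrays, AtSPP-overexpressed replicate 2 and Col-0 replicate 1, stood at the ends of their groups. The lower genes did not show one array at an end so often: AtSPP-overexpressed replicate 2 was the lowest of its group in 7 of 15 and Col-0 replicate 1 the highest in 9. The part of single arrays in these differences was not tested beyond leaving each out. All 15 higher genes and 12 of the 15 lower genes had a mean signal above the median probe set of 6.303. The higher genes lay on chromosomes 1 to 5 with 3, 5, 4, 1 and 2 genes, and the lower genes with 6, 2, 2, 1 and 4.

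At the lower end, 2 genes stood apart from all others by size. AT1G04770, of the list of glucosinolate synthesis and sulfur deficiency, had signals of 6.671, 6.617 and 6.640 in AtSPP-overexpressed seedlings, against 6.722, 6.763 and 6.757 in Col-0. The groups were 0.0507 apart, and the difference was -0.104 (standard error 0.0165, limma adjusted p = 0.0636). AT5G20790, the only measured gene of 23 on the phosphate starvation list, had signals of 5.743, 5.725 and 5.764 in AtSPP-overexpressed seedlings, against 5.824, 5.845 and 5.833 in Col-0. It fell by 0.0901 (standard error 0.0123, limma adjusted p = 0.0450) but passed in 0 of the 9 fits with 1 array left out (adjusted p from 0.0746 to 0.163). The 13 other lower genes differed by less than 0.01.

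On the glucosinolate and sulfur deficiency list, 6 of 29 genes were measured. UGT74B1, the glucosyltransferase of the thiohydroximate step of glucosinolate synthesis, was separated at -0.00137 (limma adjusted p = 0.291). BCAT4, of methionine chain elongation, and the glucosinolate transporters GTR1 and GTR2 overlapped, with differences of -1.47e-04, -0.00101 and -2.06e-05. None of the 6 passed, 2 were separated and lower, against 6.49% of all genes, and 5 differences were negative. The count became 1 higher and 1 lower with quantile normalization, and 4 lower with centring.

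Glycosyltransferases of flavonols were among the lower genes. UGT78D1, which adds rhamnose to flavonols, had signals of 7.0854, 7.0843 and 7.0857 in AtSPP-overexpressed seedlings, against 7.0876, 7.0874 and 7.0870 in Col-0, a difference of -0.00221 (standard error 3.81e-04, limma adjusted p = 0.0722). AT1G06000, of the same list, had signals of 6.841, 6.835 and 6.839 in AtSPP-overexpressed seedlings, against 6.850, 6.848 and 6.846 in Col-0, a difference of -0.00979 (standard error 0.00157, limma adjusted p = 0.0660). UGT78D2, which adds glucose to flavonoids, was separated at -0.00104 (limma adjusted p = 0.341), and DFR, of the anthocyanin branch, overlapped at 7.91e-05. Thus 3 of the 4 measured flavonoid genes, of 19 listed, were separated and lower, against 6.49% of all genes, with a median of -0.00162 and 0 past the threshold. The count of 3 was the same after quantile normalization.

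Of the 23 listed jasmonate and defence genes PDF1.2 alone was measured, and PDF1.2b and ORA47 are described because they were among the 15 lower genes. The defensin gene PDF1.2, a marker of jasmonate and ethylene signalling, had signals of 6.472, 6.476 and 6.477 in AtSPP-overexpressed seedlings, against 6.485, 6.480 and 6.483 in Col-0, and its difference of -0.00755 had a standard error of 0.00436 (limma adjusted p = 0.566). PDF1.2b differed by -0.00508 (limma adjusted p = 0.768) with a gap of 3.09e-04. Its probe set can bind transcripts of close relatives, so the value is uncertain between the defensin genes. ORA47, a transcription factor gene of jasmonate synthesis, had signals of 6.176, 6.180 and 6.171 in AtSPP-overexpressed seedlings, against 6.185, 6.183 and 6.184 in Col-0, a difference of -0.00819 (limma adjusted p = 0.223). None of the 3 passed.

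The lower genes past the threshold were AT5G20790, AT3G09440, GI and AT3G44450. AT3G09440, of the cytosolic heat shock list, had signals of 8.549, 8.548 and 8.547 in AtSPP-overexpressed seedlings, against 8.557, 8.555 and 8.553 in Col-0. It fell by 0.00690 (standard error 9.44e-04, limma adjusted p = 0.0450), but passed in 0 of the 9 fits with 1 array left out. Hsp70-2, a further Hsp70 chaperone gene of that list, was separated at -3.10e-04 (limma adjusted p = 0.252), so that 2 of the 3 measured genes of 19 listed were separated and lower, against 6.49% of all genes, and 1 of 3 with quantile normalization.

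GI encodes GIGANTEA, a clock protein that links day length to flowering. Its signal was 6.7437, 6.7423 and 6.7437 in AtSPP-overexpressed seedlings, against 6.7492, 6.7495 and 6.7489 in Col-0. The difference was -0.00600 (standard error 4.20e-04, limma adjusted p = 0.0134). GI passed in 7 of the 9 fits with 1 array left out, but not with the 6 arrays alone or with the replicate number as a block. The other measured gene of the 26 on the clock list, AT5G52660, overlapped at 2.48e-06. AT3G44450 had signals of 6.0552, 6.0547 and 6.0553 in AtSPP-overexpressed seedlings, against 6.0591, 6.0594 and 6.0579 in Col-0. It fell by 0.00373 (standard error 4.14e-04, limma adjusted p = 0.0314) and passed in 1 of the 9 such fits. The other 5 lower genes, AT2G43620, AT1G72920, AT4G12490, AT5G55620 and AT5G35970, had differences between -0.00897 and -0.00229, with limma adjusted p from 0.0793 to 0.306.

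The 56 genes past the threshold were for the most part not the genes with the largest differences. AtSPP and 5 of the 30 largest genes were among them, their median size was 6.61e-04, and 12 were under 1e-04. The arrays of all 56 were separated. In 13 the difference was smaller than the shift of 1.59e-04 by centring, 4 changed sign with centring on the medians, and 9 changed sign with quantile normalization. After GAT1_2.1 and EXGT-A3, the higher genes with a symbol included SCPL34, a serine carboxypeptidase-like gene (0.00659, limma adjusted p = 0.0375), bHLH121, a transcription factor of the iron deficiency response (0.00289, limma adjusted p = 0.0314), BZIP61, a bZIP transcription factor (0.00119, limma adjusted p = 0.0140), and TET10, a tetraspanin (3.43e-04, limma adjusted p = 0.0375). TET10 was lower after quantile normalization (-2.17e-05). Among genes without a symbol, AT5G25240 (0.00702), AT2G47440 (0.00605), AT5G44680 (0.00510), AT5G61590 (0.00455) and AT1G56220 (0.00337) were the largest of those outside the 30.

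The lower genes with a symbol were SAT32 (-7.97e-04, limma adjusted p = 0.0480), PDC2, a pyruvate decarboxylase of fermentation (-4.30e-04), BGLU44, a beta-glucosidase (-2.73e-04, limma adjusted p = 0.0412), SD1-29, an S-domain receptor kinase (-4.19e-05, limma adjusted p = 0.0450), and CYP71B23, a cytochrome P450 (-3.69e-05, limma adjusted p = 0.0480). SD1-29 and CYP71B23 were higher after quantile normalization (3.05e-04 and 2.53e-04), and BGLU44 then differed by 0. PDC2 had signals of 8.31038, 8.31039 and 8.31045 in AtSPP-overexpressed seedlings, against 8.31087, 8.31080 and 8.31084 in Col-0, a separation visible in the 4th decimal only. PDC2 passed in 9 of the 9 fits with 1 array left out (limma adjusted p from 0.0236 to 0.0480), against 7 of 9 for AtSPP and for GI, but not with the 6 arrays alone (0.0990), the replicate block (0.0568) or quantile normalization (0.173).

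A further 3 lists hold genes that work beside AtSPP in the endoplasmic reticulum. Of 28 genes for targeting proteins to this membrane and for handling their signal peptides, 16 were measured. AtSPP alone passed. With AtSPP included 3 were separated and higher, against 9.36% of all genes, and 1 was separated and lower, against 6.49%. The split was 2 higher and 8 lower with quantile normalization, and 1 higher and 3 lower with centring. The separated members besides AtSPP were AT2G39960 at 1.74e-05, AT3G05230 at 2.51e-05 and AT5G49500 at -4.16e-06, all smaller than the shift by centring. AT2G39960 and AT3G05230 were lower after centring, and AT5G49500 stayed lower. The list of the unfolded protein response and its chaperones has 23 genes, of which 6 were measured, all with a negative difference and 4 of them separated, against 6.49% of all genes. With quantile normalization 2 of the 6 were separated and lower, and with centring 3. The one of greatest size was that of CRT1b, a calreticulin that binds calcium and assists folding, at -2.15e-04 (standard error 5.90e-05, limma adjusted p = 0.200). ATERDJ3B, a cochaperone of BiP (-4.27e-05), the membrane-bound transcription factor BZIP17 (-1.76e-06) and AT5G07340 (-7.11e-06) were the others. All differences of this list but that of CRT1b were smaller than the shift of 1.59e-04 by centring, which cannot turn a negative difference. AT5G07340 was higher after quantile normalization (1.69e-04), ATERDJ3B then differed by 0, and none of the 6 passed. Of the 11 genes of ER-associated degradation, 6 were measured. All 6 overlapped, with positive differences of up to 3.00e-04 (DER2.1), and after centring on the medians 1 of 6 was positive.

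**Figure D4:**
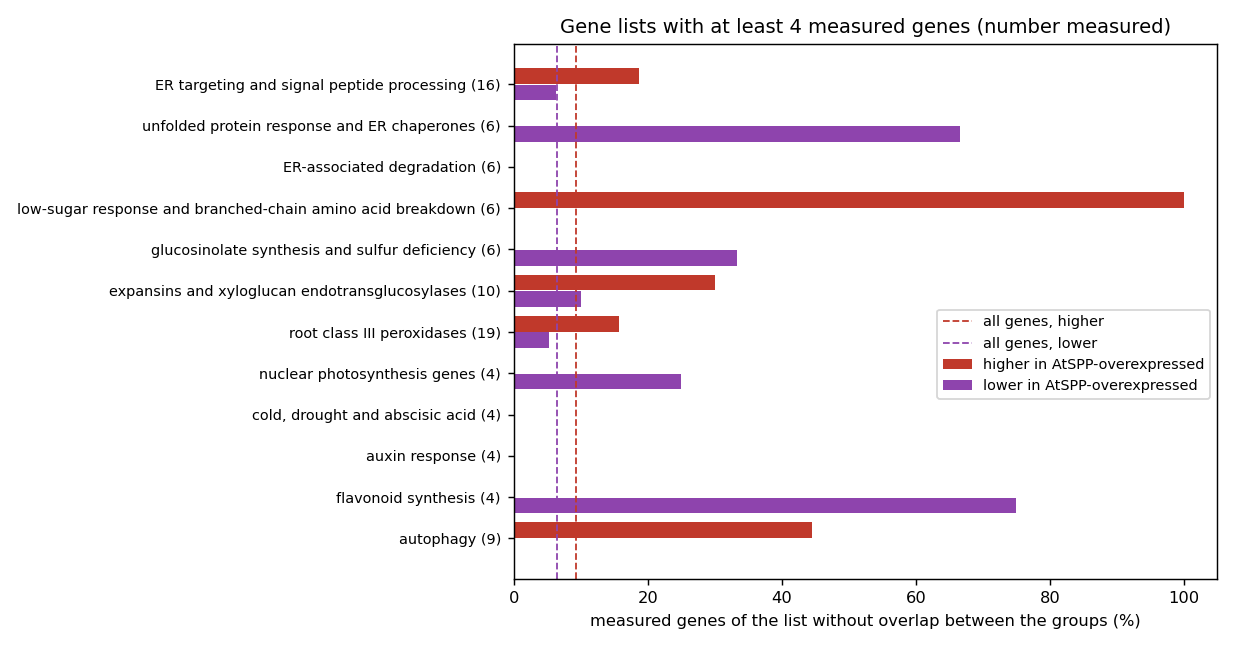
Share of the measured genes of each list (number in brackets, lists with at least 4) whose AtSPP-overexpressed arrays all lay above (red) or all below (purple) the Col-0 arrays, in percent, with dashed lines at 9.36% and 6.49% for all genes. The low-sugar list reaches 100%, but most shares rest on 1 to 4 genes and on differences far under 0.01. The lists were chosen with earlier results of these data known.

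The other lists held few separated genes. Of 28 class III peroxidases of the root, 19 were measured, 3 were separated and higher, 1 was lower (AT5G64120, -0.00122, limma adjusted p = 0.266) and none passed. These shares of 15.8% and 5.26% are near those of all genes, 9.36% and 6.49%, and the counts became 0 higher and 2 lower with centring. Among the 3 higher peroxidases was AT5G64100 (3.67e-04, limma adjusted p = 0.238), which is also a candidate substrate expressed in roots. No gene was separated among the 4 measured genes of cold, drought and abscisic acid, the 4 of auxin response, the 3 of iron supply and the 1 each of nitrate response and of touch. ARR15, a response regulator of cytokinin signalling, was separated at 1.45e-05 and was lower after centring on the medians (-1.44e-04).

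The tissue labels could be checked in part. The photosynthesis genes RCA and LHCB4.1, which mark green tissue, had signals of 12.3 in both groups. LHCB4.1 was separated at -9.48e-06, the other 3 of the 4 measured genes, of 29, overlapped, and none passed. The root markers measured were 4 of 8, the root beta-glucosidase PYK10, the root hair expansins EXPA7 and EXPA18, and AT5G17820. None of the 4 separated the groups, their mean signals ran from 6.33 to 11.8 over the 9 arrays, and their differences were at most 2.38e-05 in size. Of the 8 seed storage and 7 flower and pollen markers 0 were measured here, so these tissues were not analysed.

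The knockdown arrays were set beside the same genes. Both transgenic groups are compared with the same 3 Col-0 arrays, so their differences are not independent, and the direct comparison of overexpressed with knockdown arrays uses the overexpressed arrays again. In that direct comparison 473 of 13355 genes passed (3.54%). Array medians were 6.30234 to 6.30259 in AtSPP-overexpressed and 6.30286 to 6.30291 in knockdown arrays. Small differences between these groups therefore depend on the scaling. Of the 15 higher genes 6 passed, and each of them lay lower in AtSPP-overexpressed than in knockdown arrays. EXLA1 differed from Col-0 by 0.0891 in AtSPP-overexpressed and by 0.180 in knockdown arrays, MCCA by 0.0162 in AtSPP-overexpressed and by 0.0448 in knockdown arrays, and AT2G05540 by 0.0141 in AtSPP-overexpressed and by 0.0480 in knockdown arrays. The AtSPP signal itself was 7.923, 7.936 and 7.918 in knockdown arrays, below every Col-0 array, but this difference of -0.0479 did not pass (limma adjusted p = 0.125).

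Of the 15 lower genes 4 passed in the direct comparison. GI and AT5G35970 were lower in AtSPP-overexpressed than in knockdown arrays, and AT1G06000 and UGT78D1 were higher. GI had 6.7437, 6.7423 and 6.7437 in AtSPP-overexpressed arrays, against 6.7485, 6.7482 and 6.7491 in knockdown arrays, a difference of -0.00537 (limma adjusted p = 0.00297). AT5G35970 had 6.9045, 6.9030 and 6.9045 in AtSPP-overexpressed arrays, against 6.9154, 6.9152 and 6.9178 in knockdown arrays, a difference of -0.0121 (limma adjusted p = 0.00203). Between knockdown and Col-0 arrays GI differed by -6.38e-04 and AT5G35970 by 0.00978. The other lower genes past the threshold against Col-0 were lower in knockdown arrays as well. AT5G20790 differed there by -0.125, AT3G09440 by -0.00839 and AT3G44450 by -0.00396, and AT1G04770, the largest lower gene, by -0.135. None of these passed between AtSPP-overexpressed and knockdown arrays. PDF1.2 and AT2G43620 differed by 1.07e-04 and -3.42e-04 between knockdown and Col-0 arrays, but neither passed between AtSPP-overexpressed and knockdown arrays (limma adjusted p = 0.413 and 0.0734).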

How the data were processed

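RNA of 9 samples was hybridized to Affymetrix ATH1 arrays. The deposited values are DFW-normalized signals, which the authors computed in R and which were taken as log2 values (log base, background correction, software version: not given in the sources used here). Values were used as deposited, 64 AFFX control probe sets left out. Genes were named from the platform annotation (503 probe sets have several genes, 8730 are not listed) and the RefSeq gene table, which matched 13436 of 13513 probe sets. Groups were compared with limma 3.58.1 in R 4.3.3, with 9 arrays in 1 fit of 3 group means, 6 residual degrees of freedom, two-sided p-values adjusted by the Benjamini-Hochberg method over 22746 probe sets and a threshold of 0.05. Errors are moderated standard errors. Rank products used 100 permutations. No 2 arrays shared over 7 identical values. Named were AtSPP, the 15 largest higher and lower genes without overlap, genes past the threshold and members of 25 gene lists. The genes and lists were chosen with earlier results of these data known. The fit was tested on simulated data. Alternatives were other scalings, filters, variance settings, a replicate block and each array left out. No scanner intensities were used, so the depth and detection are unknown, and precision is limited by the number of arrays.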

Additional observations from a re-analysis of the deposited data

Results flagged for a closer look

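In 17 named genes the differences of the 2 transgenic groups from Col-0 were not the same, by the limma test of AtSPP-overexpressed against knockdown arrays. Over all genes 473 of 13355 (3.54%) passed this test. Apart from AtSPP, the 17 genes were selected by their differences on the same AtSPP-overexpressed arrays, so their count is not independent evidence. Among AtSPP and the largest higher genes, the AtSPP-overexpressed minus knockdown difference was 0.265 in AtSPP (limma adjusted p = 0.00183), -0.0909 in EXLA1 (0.0254), -0.0221 in AT2G15960 (0.0398), -0.0363 in AT3G59350 (0.0323), -0.0286 in MCCA (0.0102), -0.0339 in AT2G05540 (0.0123) and -0.0197 in AT2G32150 (0.0152). Among the largest lower genes it was 0.00942 in AT1G06000 (0.0274), -0.00537 in GI (0.00297), -0.0121 in AT5G35970 (0.00203) and 0.00210 in UGT78D1 (0.0352).

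Among further genes past the threshold against Col-0 the difference was -0.00164 in bHLH121 (0.0439), -6.63e-04 in ATG8F (0.0144), -3.71e-04 in TET10 (0.00981), -4.89e-05 in CYP71B23 (0.00820), -7.14e-05 in SD1-29 (0.00311) and -5.48e-04 in PDC2 (7.42e-04). The medians of the AtSPP-overexpressed arrays lay below those of the knockdown arrays. The differences of TET10, CYP71B23 and SD1-29 are no larger than this offset on average, and those of ATG8F and PDC2 are only somewhat larger. Values of this comparison after centring are not given here. In AtSPP, AT5G35970, CYP71B23, SD1-29 and PDC2 the 2 transgenic groups lay on opposite sides of Col-0. For PDC2 the differences from Col-0 were -4.30e-04 in AtSPP-overexpressed and 1.18e-04 in knockdown arrays. Those of CYP71B23 and SD1-29 are smaller than the shift that centring on the medians makes. Array medians were 6.30286 to 6.30291 in knockdown arrays, against 6.30234 in Col-0 arrays. The positive knockdown differences of PDC2, CYP71B23 and SD1-29 are smaller than that offset, so their direction depends on the scaling.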

How the results depend on the processing

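The 30 largest genes and AtSPP kept their direction in all alternatives run, which was nearly fixed in advance. Their arrays were separated, so leaving out 1 array could not turn a difference. Several alternatives kept the same group means, and the shift of 1.59e-04 by centring was under the smallest size, 0.00221. AtSPP did not pass with the 6 arrays alone (difference 0.217), with the replicate block (0.217, adjusted p = 0.0568), without Col-0 replicate 1 (0.210) or without Col-0 replicate 2 (0.220); with 1 array left out its difference was 0.199 to 0.233. The replicate numbers do not pair the samples (correlations of same-numbered AtSPP-overexpressed and Col-0 deviations -0.0841 to 0.0735), and with the number as a block 2 probe sets and 1 gene passed. With the 6 arrays alone 0 probe sets and 0 genes passed, with quantile normalization 2625 and 1528, with median-centred arrays 354 and 150, and among the brighter probe sets alone 227 and 95. With probe sets of 1 gene alone 39 passed. Rank products called 661 probe sets (2.91%), 79 of which limma called in the same direction. With 1 array left out 5 to 51 probe sets and 3 to 23 genes passed, fewest when Col-0 replicate 2 and most when AtSPP-overexpressed replicate 1 was the array omitted, and 5708 to 6357 probe sets were without overlap; the arm then had 2 arrays, which separate more easily.

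After quantile normalization the differences of TET10 (-2.17e-05), CYP71B23 (2.53e-04), SD1-29 (3.05e-04), AT2G39960 (-4.68e-04), AT3G05230 (-3.34e-04), AT5G07340 (1.69e-04), MCCB (-3.01e-04) and ATG8D (-5.44e-05) had the opposite sign. After centring on the medians those of AT2G39960 (-1.41e-04), AT3G05230 (-1.34e-04), AT3G01190 (-8.75e-05), AT4G08780 (-1.29e-04), ARR15 (-1.44e-04), ATG8D (-1.43e-04) and APG8H (-4.97e-05) did. The causes were not tested, apart from the shift of the medians.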
